A study of Mus musculus with 6 samples.

Results

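The S100 proteins are small calcium sensors with EF-hand motifs that work mostly as dimers and change the activity of the proteins they bind when calcium rises. Some also leave the cell: S100a8 and S100a9 form calprotectin, which is stored by neutrophils, made by keratinocytes of wounded or hyperproliferative skin and sensed by receptors such as Tlr4 and Ager. Most of the genes lie together on mouse chromosome 3, beside the genes of the cornified envelope. In cultured bulge cells, 10 genes of this family were followed (S100a3, S100a4, S100a6, S100a8, S100a9, S100a10, S100a11, S100a13, S100a14 and S100a16), each through the probe sets annotated to that gene alone, out of 18193 genes measured. S100a8 and S100a9 were selected on their much higher signal in NFFSE than in NFFS on these same arrays, so their values are given as a description with no test.

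Bulge cells, the epithelial cells of the stem cell region of the hair follicle, came from whisker (vibrissa) follicles of mice aged 7 to 8 weeks and were grown in atelocollagen gel. NFFSE medium held Noggin, FGF-7, FGF-10, a sonic hedgehog agonist and EGF, whereas NFFS medium held the same factors without EGF. The 3 NFFSE and 3 NFFS arrays were made from RNA taken after 6 days, and the cells of each repeat of the experiment had been divided between the media. The labels do not say whether arrays with the same replicate number came from the same repeat. All cells of the microdissected bulge entered the culture, niche cells included, and in such bulk samples fewer cells of a type and less RNA per cell cannot be told apart. The study used C57BL/6N mice and transgenic lines, and which of them, and how many mice, went into each repeat was not stated for the arrays. Values are MAS5 signals, a linear brightness that the authors scaled to the same mean on every array, and the number of arrays limits their precision.

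The 8 listed keratinocyte markers of the bulge (Krt5, Krt14, Krt15, Trp63, Itga6, Cd34, Sox9 and Lhx2) were far above background on every array, where background was the highest of 18 signals from the TrpnX controls, which are bacterial sequences (22.7). Calls among them split into 3 up and 3 down in NFFSE, with 2 not called, beside 11% higher and 15.2% lower of all genes. Cd34 (3.93-fold), Itga6 (2.42-fold) and Krt14 (1.77-fold) had more signal in NFFSE. Krt15 (3.94-fold), Lhx2 (3.64-fold) and Sox9 (2.27-fold) had less. Krt5 and Trp63 had no call. The media did not overlap for any of the 8, with every NFFSE array above for 4 and below for 4. Of all genes, every NFFSE array was above for 18.5% and below for 22%. Gapdh probe sets at the 3' and 5' ends, a sign of RNA quality, differed by -0.36 to -0.38 (log2, 3' minus 5') on NFFSE arrays and by -0.60 to -0.63 on NFFS arrays. Median signals were 56.5 to 65.0 on NFFSE arrays and 66.5 to 70.6 on NFFS arrays. The part of either in the results was not tested.

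Of the 10 genes, 9 had a probe set of their own, 12 in all. The only probe set for S100a11 is shared with Gm12854 and S100a11-ps and was not read. S100a8 and S100a9, whose separation follows from how they were picked, are left out of the counts that follow. Every NFFSE array was above every NFFS array for 5 of the 7 other measured genes, a pattern found for 18.5% of all genes. Among these 7 genes, 5 were higher in NFFSE at an adjusted p under 0.05 (limma, adjusted over all 18193 genes), 0 were lower and 2 were not called. Of all genes, 11% were called higher and 15.2% lower. The median log2 difference, NFFSE minus NFFS, was 0.90 over these 7 genes and -0.01 over all genes. Over the brightest 10% of genes it was 0.10.

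**Figure D1:**
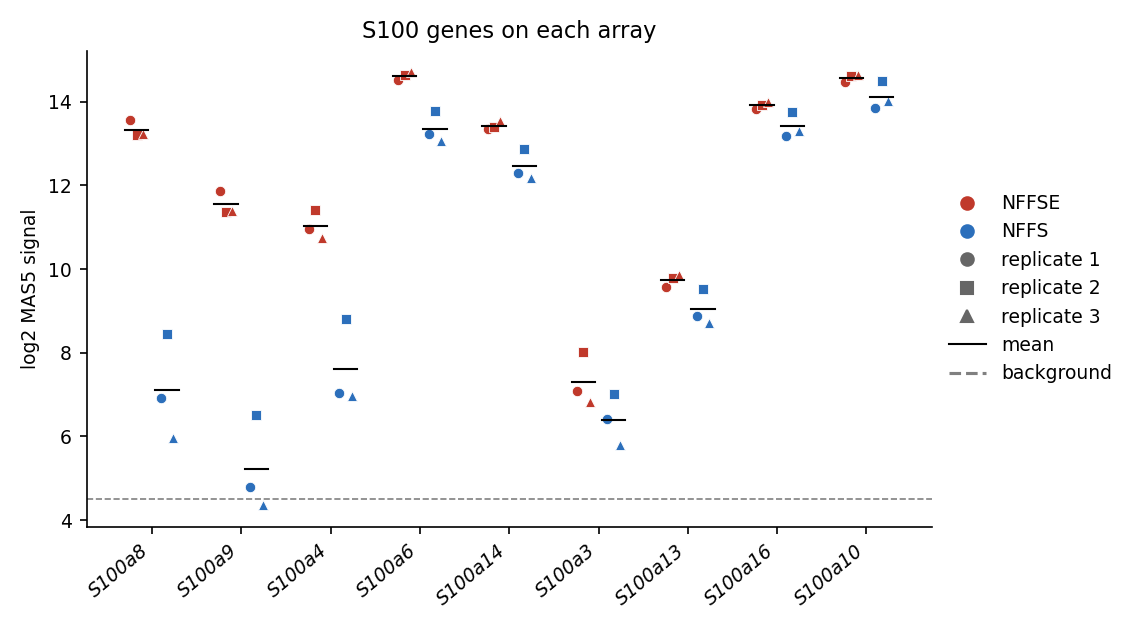
MAS5 signal (log axis) of each S100 gene on the 3 NFFSE and 3 NFFS arrays, 1 point per array, with the mean of each medium as a bar and background as a dashed line. S100a8, S100a9 and S100a4 show the widest gaps between the media, and the points of the media overlap for S100a3 and S100a10.

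S100a8 (probe set 1419394_s_at), one chain of calprotectin, had signals of 12105, 9395 and 9530 on NFFSE arrays, against 122, 352 and 62.2 on NFFS arrays (replicates 1, 2 and 3). The NFFSE arrays lay close together and far above the NFFS arrays, which spread widely with replicate 2 on top. The means were 10343 ± 1527 in NFFSE and 178 ± 153 in NFFS (SD, n = 3 each), a log2 difference of 6.21 (SE 0.48) or 74.1-fold.

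S100a9 (1448756_at), the other chain, had signals of 3753, 2636 and 2684 on NFFSE arrays, against 27.7, 90.7 and 20.6 on NFFS arrays. The NFFS arrays had the same order as for S100a8, and 1 of them was at background. Means were 3024 ± 632 in NFFSE and 46.3 ± 38.6 in NFFS (SD, n = 3 each). The log2 difference was 6.32 (SE 0.45), which is 80.2-fold by the measured signals and 77.6-fold with the array at background set to the background value. By size of increase, S100a9 ranked 3 and S100a8 ranked 4 of 18193 genes, which is the property they were picked for.

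The stretches around the start sites of S100a8 and S100a9 are shown because these genes had the largest differences of the 9 measured, and that of S100a4 because it had the largest difference among the measured genes not picked. Each runs from 250 bases before to 50 bases after the RefSeq start (GRCm38.p6), 5' to 3' on the gene's own strand. Capitals mark matches, searched on both strands, to TATAAA as a TATA box, to TGANTCA as an AP-1 element, to TTGCNNAA as a C/EBP element and, for NF-kappa-B, to GGGA and CC set 4 bases apart. S100a8 lies at chr3:90668821-90669120 on the plus strand, S100a9 at chr3:90695672-90695971 on the minus strand and S100a4 at chr3:90603520-90603819 on the plus strand.
S100a8: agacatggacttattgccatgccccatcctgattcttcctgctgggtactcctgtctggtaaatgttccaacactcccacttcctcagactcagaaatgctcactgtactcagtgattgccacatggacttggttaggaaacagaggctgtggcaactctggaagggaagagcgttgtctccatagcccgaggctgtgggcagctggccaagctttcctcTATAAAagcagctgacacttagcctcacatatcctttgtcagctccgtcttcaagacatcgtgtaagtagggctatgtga
S100a9: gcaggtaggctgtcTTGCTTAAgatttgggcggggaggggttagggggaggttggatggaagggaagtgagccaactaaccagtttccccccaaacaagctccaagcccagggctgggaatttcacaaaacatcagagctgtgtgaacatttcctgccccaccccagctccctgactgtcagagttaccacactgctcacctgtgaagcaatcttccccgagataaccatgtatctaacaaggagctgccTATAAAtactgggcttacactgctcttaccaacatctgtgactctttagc
S100a4: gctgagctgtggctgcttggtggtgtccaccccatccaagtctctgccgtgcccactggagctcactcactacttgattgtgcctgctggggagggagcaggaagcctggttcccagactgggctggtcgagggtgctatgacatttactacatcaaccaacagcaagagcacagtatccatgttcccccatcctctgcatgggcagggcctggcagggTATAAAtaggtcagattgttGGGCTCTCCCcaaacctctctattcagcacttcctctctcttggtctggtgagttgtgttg

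TATAAA began 30 bases before the start of S100a8 and 31 bases before that of S100a4, and at base 1 of S100a9. These letters occur in 13.6% of 32851 mouse promoters of the same length. S100a9 also had the C/EBP letters at position -236 (10.8% of promoters), and S100a4 the NF-kappa-B letters at position -11 (20.7%). Promoters of 8 of the 10 genes were in the table, which does not list S100a10 and S100a14, and some genes had several starts. Over those 8 genes, 4 held a TATA match in at least 1 start, 2 an AP-1 match (7.81% of all promoters), 2 an NF-kappa-B match and 1 a C/EBP match. The TATA match of S100a3 began at position -52. A gene with several starts had more chances of a match, so these counts per gene cannot be set against the shares per promoter. A match to letters is not a binding site.

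S100a4 (1424542_at), which binds non-muscle myosin and is known from motile mesenchymal cells, had signals of 1981, 2732 and 1708 on NFFSE arrays, against 132, 447 and 124 on NFFS arrays. All NFFSE arrays were above the NFFS arrays, and replicate 2 was the highest in both media. S100a4 averaged 2140 ± 530 in NFFSE and 235 ± 184 in NFFS (SD, n = 3 each), 10.8-fold higher, with a log2 difference of 3.43 (SE 0.42, limma adjusted p = 0.000199).

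S100a6 (1421375_a_at), or calcyclin, a partner of annexins and of the ubiquitin-pathway protein Cacybp, had signals of 23327, 25348 and 26547 in NFFSE and of 9496, 13960 and 8582 in NFFS. No array of one medium reached the range of the other. The log2 difference was 1.26 (SE 0.17), or 2.40-fold, with means of 25074 ± 1627 in NFFSE and 10679 ± 2877 in NFFS (SD, n = 3 each, limma adjusted p = 0.000366). S100a4 and S100a6 were called higher in all 16 alternative settings tried.

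S100a14, S100a16 and S100a13 rose by smaller amounts. S100a14 (1449166_at), a family member of epithelia, had signals of 10346, 10753 and 11822 in NFFSE and of 5052, 7516 and 4624 in NFFS, so the media were well apart. It was 1.96-fold higher, with a log2 difference of 0.97 (SE 0.17, limma adjusted p = 0.00179).

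S100a16 (1425560_a_at), another widely expressed member, gave 14537, 15493 and 16147 in NFFSE, against 9309, 13760 and 9986 in NFFS. NFFS replicate 2 came close to the NFFSE arrays without reaching them. Its log2 difference was 0.50 (SE 0.15), or 1.42-fold (limma adjusted p = 0.0287). With quantile normalization it was 0.26, and the call was lost (adjusted p = 0.117). Its second probe set (1447676_x_at) gave 12609, 12414 and 13161 in NFFSE and 7015, 11050 and 7425 in NFFS, a log2 difference of 0.61 (SE 0.16, limma adjusted p = 0.0228 over all probe sets).

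S100a13 (1418704_at), which takes part in the export of FGF1 from cells, gave 754, 878 and 927 in NFFSE and 468, 733 and 419 in NFFS. Here NFFS replicate 2 fell just short of the lowest NFFSE array. The log2 difference was 0.70 (SE 0.20), or 1.62-fold (limma adjusted p = 0.0269). The S100a13 call was lost when any of 4 arrays was left out, with adjusted p of 0.0918 without NFFSE replicate 2, 0.0939 without NFFSE replicate 3, 0.0915 without NFFS replicate 1 and 0.0972 without NFFS replicate 3. That of S100a16 was lost without any array but NFFS replicate 2, with adjusted p of 0.0554, 0.0938 and 0.0984 without NFFSE replicates 1, 2 and 3, and of 0.0923 and 0.108 without NFFS replicates 1 and 3.

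S100a10 and S100a3 did not pass the threshold. S100a10 (1416762_at), the partner of annexin A2 in a membrane complex, had signals of 22460, 25119 and 25486 in NFFSE and of 14691, 23008 and 16658 in NFFS. NFFS replicate 2 lay above NFFSE replicate 1, so the media overlapped. The log2 difference was 0.45 (SE 0.16, limma adjusted p = 0.0652), and the gene was called in 4 of the 16 alternative settings. It was 0.64 without NFFS replicate 2 (adjusted p = 0.00244) and 0.31 without NFFS replicate 1 (0.191), and 0.22 with quantile normalization (0.128). A further S100a10 probe set (1456642_x_at) gave 21535, 22783 and 21914 in NFFSE and 14328, 22499 and 16341 in NFFS (log2 difference 0.34, adjusted p = 0.177 over all probe sets). The remaining one (1439348_at), which was dim, gave 127, 166 and 184 in NFFSE and 127, 167 and 186 in NFFS, a log2 difference of -0.01, so the 3 probe sets of S100a10 did not move alike.

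S100a3 (1421856_at), a protein of the hair cuticle, gave 136, 259 and 113 in NFFSE and 85.0, 129 and 55.6 in NFFS. The ranges overlapped, and NFFSE replicate 2 was far above its fellows. The log2 difference was 0.90 (SE 0.39, limma adjusted p = 0.129). S100a3 was called in 1 of the 16 alternative settings.

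NFFS replicate 2 recurred in these values. It was the highest of the NFFS arrays for 9 of the 9 genes, against 35.7% of all genes, 43.1% of the 2002 genes called higher and 52.5% of the 1820 brightest genes. Its log2 signal exceeded the mean of NFFS replicates 1 and 3 by a median of 0.73 over the 9 genes, by 0.08 over the genes called higher, by 0.10 over the brightest genes and by 0.0020 over all genes. The excess was 2.02 for S100a8, 1.93 for S100a9 and 1.80 for S100a4, and 0.51 for S100a16 at the low end. The dim S100a10 probe set (1439348_at), which did not stand for the gene, had NFFS replicate 3 on top. After quantile normalization NFFS replicate 2 was still on top for 9 of the 9, with a median excess of 0.82. For the brightest genes in that setting the values were 42.4% and 0.019. These are descriptions of a single array, seen after the values were known. The median signal of NFFS replicate 2 (70.6) was above those of NFFS replicates 1 and 3 (66.5 and 68.4), and its Gapdh 3' minus 5' value (-0.62) lay between theirs. The part of these values in the pattern was not tested.

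**Figure D2:**
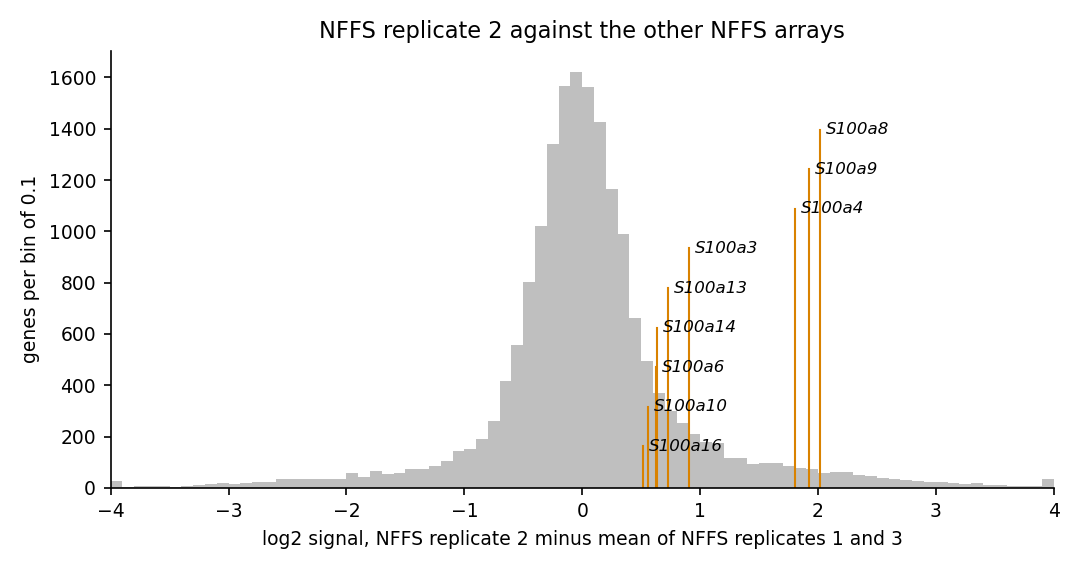
Number of genes by log2 signal of NFFS replicate 2 minus the mean of NFFS replicates 1 and 3 (bins of 0.1, values beyond the axis in the end bins), with the 9 S100 genes marked by lines whose height carries no value. All 9 lie to the right of zero, with S100a8, S100a9 and S100a4 farthest out, and the median of all genes is 0.0020.

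Among the other S100 genes, only S100a1 was called, and it was lower. Of 7 listed (S100a1, S100a5, S100a7a, S100a7l2, S100b, S100g and S100z), 5 were measured, of which 0 were higher, 1 was lower and 4 were not called, beside 11% higher and 15.2% lower of all genes. S100a1 (1419814_s_at), known for its role in calcium handling by muscle, had signals of 776, 968 and 1051 in NFFSE, against 1441, 1913 and 1621 in NFFS. The arrays of the media did not overlap, in the direction opposite to the genes above, a pattern found for 22% of all genes. S100a1 averaged 932 ± 141 in NFFSE and 1658 ± 239 in NFFS (SD, n = 3 each), 1.78-fold lower, with a log2 difference of -0.83 (SE 0.15, limma adjusted p = 0.00218). Its other probe set (1417421_at) gave 276, 367 and 396 in NFFSE and 702, 841 and 695 in NFFS, a log2 difference of -1.12.

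S100a5 gave 46.1, 31.9 and 72.9 in NFFSE and 45.6, 44.2 and 56.7 in NFFS, and the media overlapped (log2 difference -0.03, limma adjusted p = 0.971). S100b, a protein of glia and melanocytes, had a pair of dim probe sets of opposite sign, at -0.88 (12.8, 12.3 and 10.5 in NFFSE, 14.9, 29.9 and 23.2 in NFFS) and 2.05 (18.7, 32.7 and 41.6 in NFFSE, 4.04, 12.2 and 7.25 in NFFS). S100g and S100a7l2 were at background on all 6 arrays.

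S100a1 and S100a13 lie head to head on chromosome 3, and their stretches of 300 bases share 204 bases, yet their signals differed in opposite directions. That of S100a1, at chr3:90514281-90514580 on the minus strand, is shown for that reason and held none of the letters searched.
S100a1: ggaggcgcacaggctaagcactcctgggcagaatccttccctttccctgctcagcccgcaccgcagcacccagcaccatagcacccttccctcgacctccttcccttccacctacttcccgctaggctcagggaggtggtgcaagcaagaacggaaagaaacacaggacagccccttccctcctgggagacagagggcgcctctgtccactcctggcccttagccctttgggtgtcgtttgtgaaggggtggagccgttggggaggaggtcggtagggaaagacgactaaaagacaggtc

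Along chromosome 3, in RefSeq order, S100a1 was followed by S100a13, S100a14, S100a16, S100a3, S100a2, S100a4, S100a5, S100a6, S100a7a, S100a8 and S100a9, with S100a11 and S100a10 farther along. S100a7l2, at background on all 6 arrays, lies between S100a9 and S100a11 and was left out of this order. S100a1 was called lower and S100a13, S100a14, S100a16, S100a4 and S100a6 higher. S100a5, with no call, sits between S100a4 and S100a6. Chtop, the neighbour ahead of S100a1, had a log2 difference of -0.40 (SE 0.11, limma adjusted p = 0.0179).

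**Figure D3:**
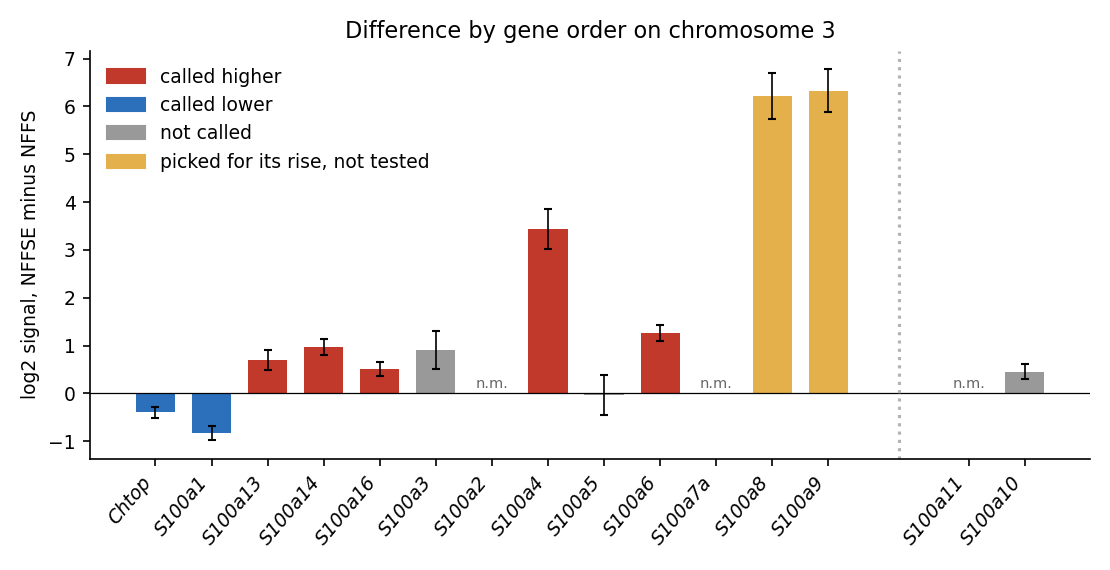
Log2 difference, NFFSE minus NFFS, by gene order (not distance) on chromosome 3, with the SE as error bars, n = 3 arrays per medium and n.m. for a gene not measured through a probe set of its own. Chtop and S100a1 are below zero, S100a5 is at about zero, and S100a8 and S100a9 stand at 6.21 and 6.32. S100a7l2, which lies between S100a9 and S100a11, is not shown.

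Large fused-type proteins, which carry an S100 domain joined to a long repeat and build the cornified layer and the hair sheath, were listed with 7 genes, of which 5 were measured. Tchh, or trichohyalin of the inner root sheath, was higher and 4 were not called, beside 11% of all genes called higher. It had signals of 221, 154 and 246 in NFFSE and of 116, 101 and 86.4 in NFFS. The arrays did not overlap, and the log2 difference was 1.02 (limma adjusted p = 0.0145). Without NFFSE replicate 1 its adjusted p was 0.0549, and without NFFSE replicate 3 it was 0.0623.

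Of 11 listed intracellular partners of S100 proteins, 10 were measured: 2 were higher, 1 was lower and 7 were not called, with a median log2 difference of 0.21. Of all genes, 11% were higher and 15.2% lower, so these counts stand near the shares of all genes. Anxa1, the annexin that binds S100a11, had signals of 27678, 30554 and 33380 in NFFSE and of 16384, 20837 and 17526 in NFFS, 1.68-fold higher (log2 difference 0.75, limma adjusted p = 0.00169). Anxa2, the partner of S100a10, had signals of 21760, 25596 and 24772 in NFFSE and of 14498, 19416 and 15762 in NFFS, 1.46-fold higher (log2 difference 0.55, limma adjusted p = 0.012). For both annexins every NFFSE array was above every NFFS array. The call of Anxa2 was lost without NFFSE replicate 2 (adjusted p = 0.0631) or NFFS replicate 3 (0.0523), and over the mean of its probe sets the log2 difference was 0.17 (adjusted p = 0.806).

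Anxa6, an annexin of membrane traffic, went the other way. Its signals were 222, 150 and 206 in NFFSE and 948, 563 and 930 in NFFS, 4.16-fold lower (log2 difference -2.06, limma adjusted p = 0.000128). Over the mean of the Anxa6 probe sets the log2 difference was -1.11 (limma adjusted p = 0.00864). Cacybp, the calcyclin-binding protein, was not called (log2 difference 0.29, limma adjusted p = 0.0947).

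The 9 listed surface receptors and adaptors were all measured: 2 were higher, 1 was lower and 6 were not called, with a median log2 difference of 0.29, again beside 11% higher and 15.2% lower of all genes. Tlr4, the receptor named above, had dim and overlapping signals of 49.7, 71.2 and 23.9 in NFFSE and of 52.4, 45.8 and 28.1 in NFFS. Ager, the receptor for advanced glycation end products, gave 53.8, 23.5 and 38.5 in NFFSE and 20.8, 6.82 and 6.36 in NFFS, with the NFFS arrays all at background (limma adjusted p = 0.0545). Neither was called.

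Myd88, the adaptor below Tlr4, had signals of 1369, 1242 and 1221 in NFFSE and of 799, 718 and 635 in NFFS, 1.79-fold higher (log2 difference 0.84, limma adjusted p = 0.000699). Bsg, or basigin, a receptor for S100A9 in human cells, had signals of 8244, 9393 and 9741 in NFFSE and of 5934, 6448 and 6905 in NFFS, 1.42-fold higher (log2 difference 0.50, limma adjusted p = 0.00631). For both the media were apart on every array.

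Mcam, an adhesion molecule that binds S100A8/A9 in human cells, was lower. Its signals were 74.1, 83.3 and 130 in NFFSE and 572, 499 and 732 in NFFS, 6.39-fold lower (log2 difference -2.68, limma adjusted p = 4.07e-05). Ly96, the Tlr4 co-receptor, was not called (log2 difference 0.39, limma adjusted p = 0.068).

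Neutrophils are a rich source of S100a8 and S100a9, so their other markers are given beside these genes. Of 12 listed, 10 were measured (Ly6g and Retnlg were not), and their summed signal was 325, 273 and 383 on NFFSE arrays and 254, 322 and 345 on NFFS arrays, so the media overlapped. Of the 10 markers, 1 was higher, 1 was lower and 8 were not called, beside 11% higher and 15.2% lower of all genes. Their median log2 difference was 0.88. Every NFFSE array was above every NFFS array for 5 markers and below for 1, and the media overlapped for 4. Over all genes, 18.5% had every NFFSE array above and 22% had every NFFSE array below. The chemokine receptor Cxcr2 had signals of 45.9, 41.0 and 61.1 in NFFSE and of 7.10, 6.44 and 8.50 in NFFS, at least 2.14-fold higher since all NFFS arrays were at background (limma adjusted p = 0.00316). Mpo, Mmp8 and Ngp were also above background on every NFFSE array, and none was called. Their log2 differences were 1.37, 1.14 and 0.60 (limma adjusted p = 0.177, 0.116 and 0.295). For Mmp8 all NFFS arrays were at background, and for Mpo 1 was.

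Camp, the cathelicidin of neutrophil granules and also of keratinocytes, had signals of 12.8, 6.89 and 9.18 in NFFSE, all at background, and of 89.5, 189 and 171 in NFFS, at least 6.28-fold lower (limma adjusted p = 0.000191). Elane, the elastase of these cells, reached at most 41.7 in NFFSE and 26.6 in NFFS. The pan-leukocyte gene Ptprc reached at most 31.5 in NFFSE and 15.3 in NFFS. Without Camp, left out after its values were seen, the summed signal of the other 9 markers was 312, 266 and 374 in NFFSE and 164, 133 and 174 in NFFS, and the media did not overlap. The part of these markers in the S100a8 and S100a9 values was not tested.

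**Figure D4:**
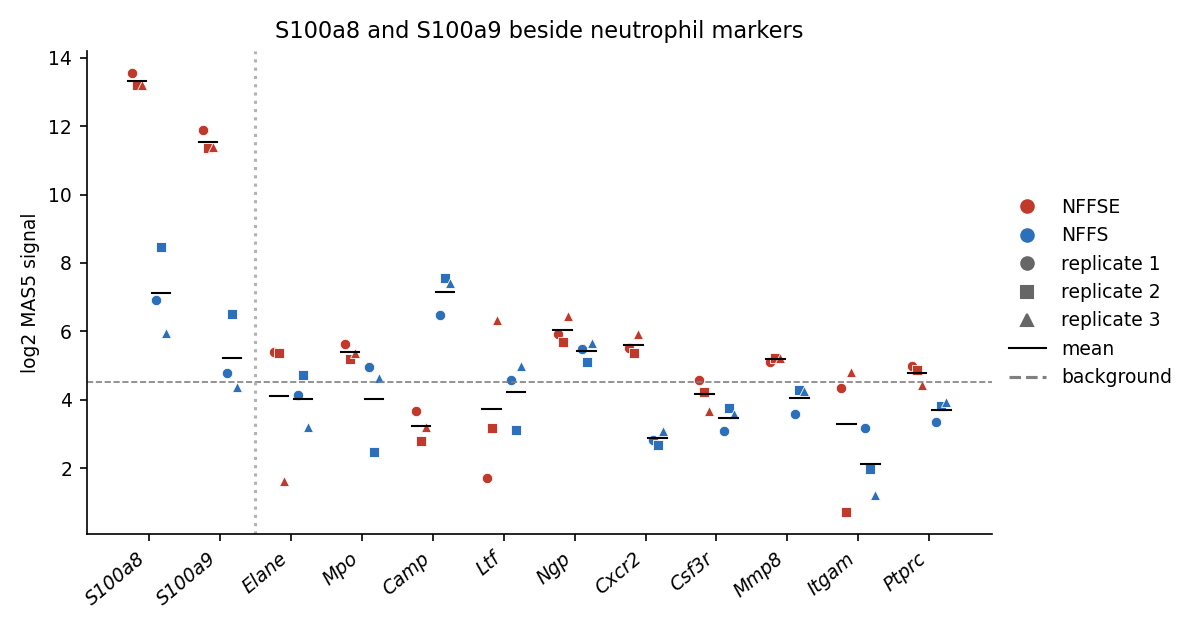
MAS5 signal (log axis) of S100a8 and S100a9 and of the 10 measured neutrophil markers on the 3 NFFSE and 3 NFFS arrays, 1 point per array, with means as bars and background as a dashed line. Signals of markers other than S100a8 and S100a9 reach at most 189, for Camp in NFFS.

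Among markers of other cells, macrophage and Langerhans cell genes (8 of 8 measured, 0 called) summed to 491 to 740 in NFFSE and 534 to 635 in NFFS. Fibroblast genes (9 of 9 measured) summed to 508 to 516 in NFFSE and 713 to 942 in NFFS, with 3 lower (Col1a2, Thy1 and Vim), 0 higher and 6 not called. The shares of all genes were 11% higher and 15.2% lower. Melanocyte and Schwann cell genes (6 of 8 measured, 0 called) summed to 582 to 934 in NFFSE and 483 to 644 in NFFS, and endothelium genes (5 of 5, 0 called) to 225 to 291 in NFFSE and 188 to 276 in NFFS. The part of the fibroblast shift in the results was not tested.

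Over the 6 arrays, whose log2 signals are split by medium, the genes closest to S100a8 by Pearson's correlation were S100a9 (0.9986), Clcf1, a gp130 cytokine (0.9983), Sdr16c5, a retinol dehydrogenase (0.9981), Aqp3, a glycerol channel of the epidermis (0.9976), and Sbsn, a suprabasal secreted protein (0.9976). Those closest to S100a9 were Adam8, a metalloprotease (0.9989), Cib1, a calcium-binding partner of integrins (0.9987), S100a8 (0.9986), Clcf1 (0.9985) and Cdc34, a ubiquitin-conjugating enzyme (0.9977). Clcf1 had signals of 1610, 1325 and 1254 in NFFSE and of 111, 174 and 80.3 in NFFS. Adam8 had signals of 2365, 2282 and 2070 in NFFSE and of 255, 424 and 236 in NFFS. Both had NFFS replicate 2 on top of the NFFS arrays, as S100a8 and S100a9 did, which follows largely from picking them by correlation over these arrays. Correlations of this kind describe the gap between the media and the order of 6 arrays.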

How the data were processed

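RNA of bulge cells cultured in NFFSE or NFFS medium (3 arrays each, 100 ng of RNA per labelling) was hybridised to Affymetrix Mouse Genome arrays. The deposited values are the authors' MAS5 signal intensities on a linear scale, of a version not stated there. Trimmed of 2% at each end, every array had a mean of 500.003. No raw scanner values were used here, so background and summary steps stayed as deposited. Of 45101 probe sets, 64 were controls, 34945 had 1 gene symbol in the platform annotation, 932 had several and 9160 were not listed. The gene numbers of 34741 were found in a RefSeq table (GRCm38.p6). Where a gene had several probe sets, the one of highest mean log2 signal stood for it (18193 genes). NFFSE minus NFFS was estimated on log2 signals by limma 3.58.1 under R 4.3.3 (lmFit, then eBayes with a trend on intensity), which was also tested on simulated data. P-values were adjusted by Benjamini and Hochberg's method across these genes, and calls were made under 0.05. Signal means and SDs are linear, and folds are antilogs of log2 differences. P-values measure the spread between arrays that the labels call biological replicates.

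The genes and lists were chosen with earlier results of these data known. The genes named are all 10 S100 genes with their probe sets, the other S100 genes and the called genes of the remaining lists. Named markers are the bulge keratinocyte genes, neutrophil genes above background on every array of a medium, and called genes of other cell types. Markers of those other cell types that were above background but not called appear in sums only. Also named are the 5 genes that correlate best with S100a8 and with S100a9. These were sought among genes at or above the 60th percentile of mean signal in either medium. Tlr4, Ager, Cacybp, Ly96, Elane, Ptprc and Chtop were named besides, for their known role or place, after their values had been seen, as was the background rule. Alternatives were array scaling, low signals, the dim filter, the probe set of a gene, the variance trend, the methods' t-test, the replicate block and leaving out each array. Promoters were searched with Python 3.11.15.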

Additional observations from a re-analysis of the deposited data

How the results depend on the processing

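Under the 16 alternatives, S100a4 (log2 difference 3.11 to 4.03) and S100a6 (1.04 to 1.47) kept their calls, S100a14 did in 15 (adjusted p = 0.0633 by the methods' t-test), S100a13 in 9 (0.54 to 0.94) and S100a16 in 7 (0.26 to 0.70). S100a10 (0.22 to 0.65) was called in 4 and S100a3 (0.55 to 1.21) in 1. S100a8 ranged over 5.63 to 6.88 and S100a9 over 5.76 to 6.97. The 5 S100 genes called higher became 3 with a floor of 16, 3 without the intensity trend, 2 by the methods' t-test and 7 with the replicate block, which added S100a10 and S100a3 (adjusted p = 0.0263 each) and changed no other S100 call, and 3 to 6 when 1 array was left out (3 without NFFSE replicate 2 or 3 or NFFS replicate 1 or 3, and 6 without NFFS replicate 2). Over all genes, 2002 were higher and 2771 lower, against 1323 higher without the trend, 1262 higher and 1702 lower by the methods' t-test, and 2916 higher and 1784 lower with arrays centred on their medians, which moved the median of all genes to 0.19 against -0.01 as reported. The 1 call among other S100 genes became 0 by the methods' t-test and 2 with the probe set of highest linear mean, a choice made after seeing the data. The 1 fused-type call became 0 by the methods' t-test and 0 to 1 when an array was left out. The 3 partner calls became 6 and the 3 receptor calls 5 with median centring, and the receptor calls also became 5 with quantile normalization. S100a5 turned to 0.17 with median centring and 0.14 with quantile normalization, and spanned -0.34 to 0.26 when an array was left out. S100g spanned -0.0073 to 0.51 likewise. S100b turned to 0.58 over the mean of its probe sets and to 2.05 with the probe set of highest linear mean. The labels do not say that replicate numbers mark pairs: deviations from the medium means correlated at 0.066, 0.042 and 0.037 within numbers 1, 2 and 3, and 6 of 6 arrays correlated best with their own number. That count takes each of the 3 pairs from both sides, so it is not 6 separate results and is a hint from the data only. The causes were not tested. Signals near background limit S100b, S100g, S100a7l2 and the NFFS values of S100a9.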
